A study of Mus musculus with 24 samples.

Results

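The comparison described here is OTX2 depletion in definitive endoderm at 48 h, the DE2 stage, taken across all genes. It holds 6 of the 24 libraries of the series, chosen by their labels, and 15037 of the 18205 genes in the deposited table could be tested. The 3 libraries treated with dTAG13 and the 3 treated with DMSO, the vehicle, came from the cell lines 7H, 7H1 and 7H2, with 1 library of each treatment per line, so each dTAG13 library was set against the DMSO library of its own line. All lines carry OTX2-dTAG-EGFP, OTX2 fused to a tag that dTAG13 links to a ubiquitin ligase so that the protein is degraded, on a BL6/129 hybrid background. Mouse epiblast stem cells were first turned into primitive streak cells in 16 h of CDM that held CHIR, an activator of WNT signalling, at 3 µM and activin A at 40 ng/ml. Activin A at 100 ng/ml and LDN, an inhibitor of BMP receptors, at 100 nM followed for 48 h, and dTAG13 or DMSO was present for 21 h. That these hours ended at the 48 h harvest is read from the labels, which name the 24 h stage as a point of addition. Neither the relation between the lines nor the number of tagged Otx2 alleles is given in the labels. The p-values therefore measure a spread between libraries that may be in part technical. In the main fit this spread was pooled over all 24 libraries and not taken from the 6 at 48 h alone. The series was made to list OTX2-dependent genes stage by stage.

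OTX2 is a homeodomain transcription factor that binds DNA through a bicoid-type core. In the mouse embryo it is needed in the anterior visceral endoderm and the anterior neural plate, where antagonists of WNT and NODAL signalling are among the genes it is known for. Definitive endoderm leaves the anterior primitive streak under NODAL signalling, and its most anterior part secretes WNT and BMP antagonists before it forms the foregut.

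Deposited values are normalised read counts, and values of a gene are given in the order 7H, 7H1 and 7H2 within a treatment. They summed to 25.4 to 26.5 M per library over the 6 libraries, and the steps between low values put their depth at an estimated 23.4 to 33.9 M reads. Otx2 mRNA (chr14, GRCm38) stood at 10552, 13640.2 and 13218 in dTAG13-treated cells, against 8625, 12385 and 9470.5 in DMSO-treated cells. The level was higher with dTAG13 within every line, while the treatments overlapped across lines (log2 fold change 0.30 ± 0.078, adjusted p = 0.0104, which became 0.336 without the line term, and 0.0642 without line 7H and 0.13 without line 7H2). dTAG13 acts on the protein, so the mRNA does not measure the depletion, and without the strand of the reads Otx2 and its antisense gene cannot be told apart. Of the defining markers of endoderm, Sox17, Foxa2, Gata6, Lhx1, Cxcr4 and Cer1 were read in all 6 libraries, with values given further on. Epcam, an epithelial adhesion molecule of endoderm, stood at 13, 30.0 and 102 with dTAG13 and 17.4, 119 and 118 with DMSO, and at 0 to 161.5 over all 24 libraries.

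More than 1 in 4 genes differed between dTAG13 and DMSO at 48 h, and the largest differences were losses. Of 15037 genes, 2120 (14.1%) rose and 2019 (13.4%) fell at a Benjamini-Hochberg adjusted p under 0.05 by limma, 27.5% in all, and the verbs rose and fell are kept here for such calls. Among changes of at least 2-fold, 1004 genes fell (6.68% of those tested) and 528 rose (3.51%). The gap was narrower after quantile normalisation, with 805 falls and 654 rises of at least 2-fold. In the main fit, the counts at 4-fold or more were 480 falls and 200 rises, and at 16-fold or more 90 falls and 19 rises. A mean under 10 with dTAG13 beside at least 100 with DMSO was found for 27 genes that fell, and the reverse for 2 that rose. Of the falls, 1983 were lower in all 3 lines, and of the rises, 2072 were higher in all 3. The values of the groups did not overlap for 3269 of the called genes, against 4760 (31.7%) among all genes tested. Leaving out line 7H gave 2750 called genes, leaving out line 7H1 gave 2190 (1034 higher and 1156 lower), and dropping the line term gave 2551. A fit of the 48 h libraries alone gave 2373. The median over all genes tested lay at -0.0037 on the log2 scale, and the median SE of an effect was 0.161. In a principal component analysis of the 6 libraries, the first component (43.9% of the variance) placed the dTAG13 libraries at 58.4, 78.8 and 38.7 and the DMSO libraries at -51.6, -64.5 and -59.8, while the second (19.1%) set both libraries of line 7H1 apart from the others.

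**Figure D1:**
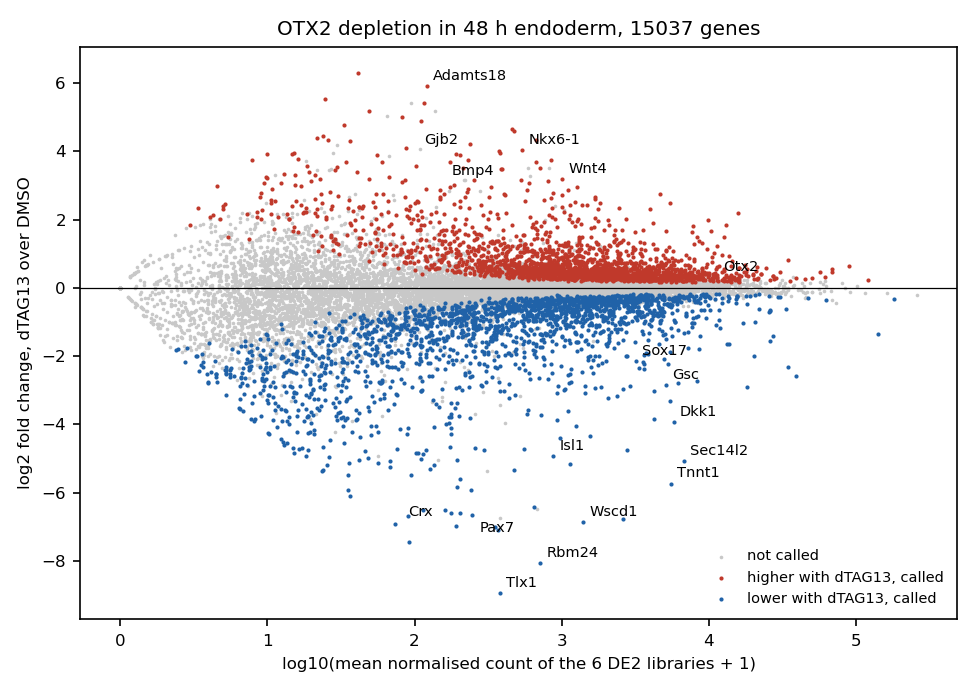
Each point is 1 of 15037 genes. The x axis is the log10 of the mean normalised count over the 6 libraries at 48 h plus 1, and the y axis is the log2 fold change of dTAG13 over DMSO. Red points rose and blue points fell at an adjusted p under 0.05. The falls reach further from 0 than the rises, with Tlx1 at -8.94 and Adamts18 at 5.92.

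Transcription factor genes stood among the 15 largest falls, ranked by fold change among genes called with a mean normalised count over the 6 libraries of 50 or more. The 15 largest falls and rises also had to have the same sign in all 3 lines and no predicted-gene name. Their agreement between lines thus follows from the choice, and groups that stand apart are likely in genes picked by size. Neither is further support. Tlx1, a homeobox gene known for its part in spleen development, was at 0, 0 and 1.7 in dTAG13-treated cells, against 362, 1152 and 764 in DMSO-treated cells. No DMSO library came near the dTAG13 libraries, 2 of which were listed at 0 (log2 fold change -8.94 ± 0.68, adjusted p = 5.87e-07; gene at chr19:45150680-45156943). Pax7, a paired box gene of neural crest and muscle stem cells, was likewise low in every dTAG13 library, at 4.33, 6.44 and 1.32 in dTAG13-treated cells, against 299, 673 and 475 in DMSO-treated cells (log2 fold change -6.67 ± 0.43, adjusted p = 1.64e-07; chr4:139737062-139833528). Crx belongs to the same homeobox family as Otx2 and is best known from photoreceptors. It read 4.4, 0 and 3.38 in dTAG13-treated cells, against 485, 372 and 97.9 in DMSO-treated cells, again without overlap (log2 fold change -6.51 ± 0.73, adjusted p = 1.85e-05; chr7:15865947-15879968). Fezf1, a zinc finger repressor of the developing forebrain, stood at 0, 0 and 0 in dTAG13-treated cells, against 166, 128 and 252 in DMSO-treated cells. It was called lower with an adjusted p of 1.35e-05, and no fold is given against a group listed at 0. Fold changes here and below are those of the normalised count plus 1, with their SE after the ± sign, and this scale understates the change of genes with low values.

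The other genes of the 15 largest falls code for proteins of several kinds. Rbm24, an RNA-binding regulator of splicing in muscle, stood at 4.01, 0 and 26.1 in dTAG13-treated cells, against 1159.7, 1926 and 1170.4 in DMSO-treated cells. In every line it lay far under its DMSO library (log2 fold change -8.07 ± 0.72, adjusted p = 7.36e-06). The Wscd1 values were close together within each treatment, at 23.5, 14.3 and 34.5 in dTAG13-treated cells, against 2687, 2872 and 2719 in DMSO-treated cells, with a wide gap between the treatments (log2 fold change -6.86 ± 0.33, adjusted p = 8.98e-09). Fam46c, a non-canonical poly(A) polymerase, was at 101, 29.4 and 33.3 with dTAG13 and 4740.1, 5538 and 5212 with DMSO (log2 fold change -6.76 ± 0.42, adjusted p = 1.05e-07). Genes known from neurons and glia were also among them: the NMDA receptor subunit gene Grin2c (-7.02), the heavy neurofilament gene Nefh (-6.99), the sodium, calcium and potassium exchanger Slc24a2 (-6.51) and Ermn (-6.91), which is known from myelinating cells. The membrane ubiquitin ligase gene March4 (-7.09), the cadherin-related Dchs2 (-6.67), the anion channel gene Best2 (-6.60) and Crtac1 (-6.60), whose product is secreted, complete the 15. Their adjusted p-values lay between 1.29e-06 and 0.000441. Every DMSO library was above every dTAG13 library for all 8 of these genes, although Best2 was at 0, 0 and 52.3 with dTAG13 and 239.7, 563 and 361 with DMSO, with line 7H2 apart from the others. Of genes picked after their values were seen, Sec14l2, a lipid-binding protein of the cytosol, stood at 387, 534 and 275 in dTAG13-treated cells, against 13994, 14649 and 10846 in DMSO-treated cells (log2 fold change -5.08 ± 0.19, adjusted p = 9.73e-10), and Nr2f2, the orphan nuclear receptor COUP-TFII, at 32.4, 52.9 and 117 with dTAG13 and 1439, 2430.3 and 2795 with DMSO (log2 fold change -5.16 ± 0.37, adjusted p = 3.68e-07). Angpt2, a ligand of the TIE2 receptor of vessels, stood at 234, 287 and 97.7 with dTAG13 and 3031, 6620.3 and 6341 with DMSO (log2 fold change -4.74 ± 0.58, adjusted p = 9.53e-05). The treatments did not overlap for any of these 3 genes.

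**Figure D2:**
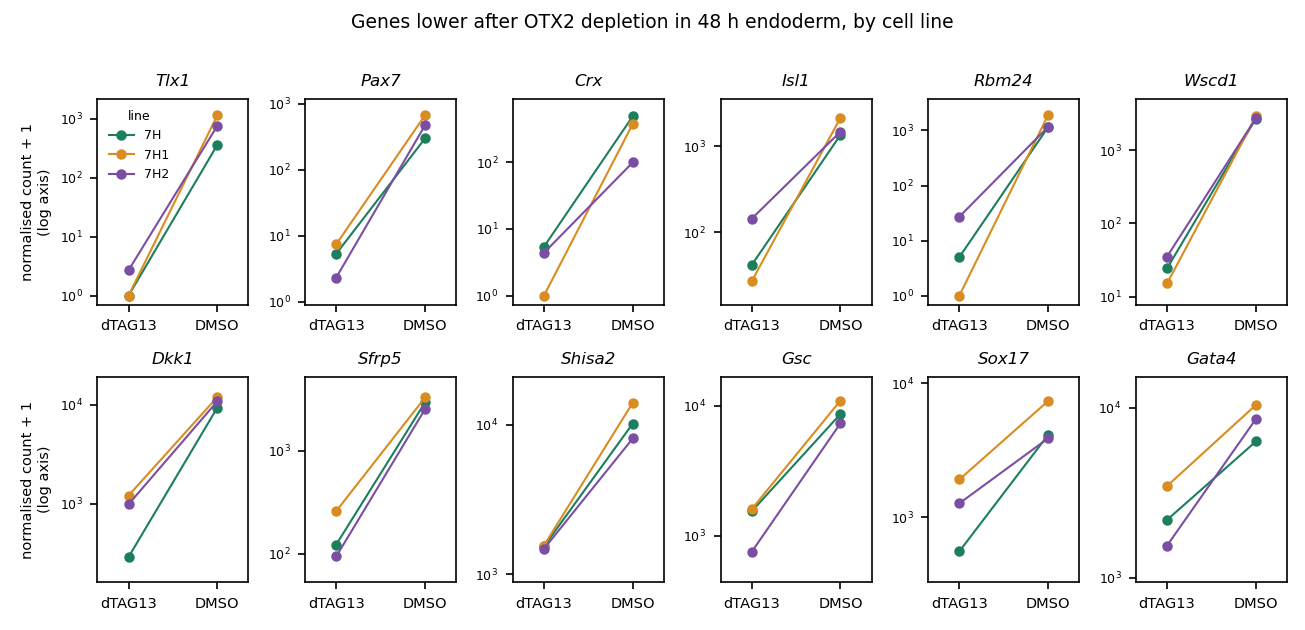
Normalised counts plus 1 on a log axis in dTAG13-treated cells (left) and DMSO-treated cells (right) for 12 genes that fell, with 1 colour per cell line and a line joining the libraries of that cell line. All dTAG13 values lie under all DMSO values in each panel, and the drop is steepest for Tlx1 and Rbm24.

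Promoter sequence is shown for genes that carry, near their start, the bicoid-type core TAATCC that OTX2 is known to prefer, so that the place of the motif can be seen. The RefSeq windows of 250 bases before to 50 after a transcript start (build GRCm38.p6) covered 11 of the 15 largest falls, and 2 of these, Wscd1 and Crx, held TAATCC or its reverse complement GGATTA, Wscd1 in 1 of its 3 windows. Isl1, a LIM homeobox gene that fell, with values given further on, and 1 of the 4 Otx2 windows also held it. The windows were chr11:71750435-71750734 on the plus strand for Wscd1, chr7:15879906-15880205 on the minus strand for Crx, chr13:116309639-116309938 on the minus strand for Isl1 and chr14:48665060-48665359 on the minus strand for Otx2. Each is written 5′ to 3′ along the gene, with the motif in capitals. It begins at base -233 from the start in Wscd1, at bases -94 and -21 in Crx, at -177 in Isl1 and at -211 in Otx2.
Wscd1: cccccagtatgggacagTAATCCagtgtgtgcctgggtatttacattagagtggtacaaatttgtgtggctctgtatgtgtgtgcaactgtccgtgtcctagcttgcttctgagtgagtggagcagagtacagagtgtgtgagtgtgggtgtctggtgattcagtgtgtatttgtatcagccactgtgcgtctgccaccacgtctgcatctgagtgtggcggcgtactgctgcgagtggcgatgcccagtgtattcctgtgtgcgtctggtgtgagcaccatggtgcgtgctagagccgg
Crx: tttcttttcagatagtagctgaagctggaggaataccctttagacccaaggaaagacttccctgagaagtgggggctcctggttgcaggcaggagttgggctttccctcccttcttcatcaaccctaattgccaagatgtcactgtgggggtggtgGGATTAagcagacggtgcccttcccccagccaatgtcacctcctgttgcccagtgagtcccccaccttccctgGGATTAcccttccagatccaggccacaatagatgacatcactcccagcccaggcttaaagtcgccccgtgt
Isl1: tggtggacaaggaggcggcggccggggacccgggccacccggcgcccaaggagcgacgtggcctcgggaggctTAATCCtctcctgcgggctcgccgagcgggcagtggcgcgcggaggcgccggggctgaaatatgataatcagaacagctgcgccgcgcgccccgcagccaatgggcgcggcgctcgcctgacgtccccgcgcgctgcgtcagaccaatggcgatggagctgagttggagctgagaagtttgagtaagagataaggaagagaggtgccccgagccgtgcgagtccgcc
Otx2: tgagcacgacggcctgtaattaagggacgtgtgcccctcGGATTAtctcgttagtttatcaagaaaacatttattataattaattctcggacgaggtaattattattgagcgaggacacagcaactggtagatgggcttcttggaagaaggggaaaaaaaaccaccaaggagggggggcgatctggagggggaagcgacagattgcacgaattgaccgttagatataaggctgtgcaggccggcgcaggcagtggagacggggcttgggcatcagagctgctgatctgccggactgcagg
The motif stood in 73 of 962 windows (7.59%) of genes that fell at least 2-fold and in 16 of 504 windows (3.17%) of genes that rose at least 2-fold. For all called genes the shares were 6.89% of 1989 windows of falls and 4.87% of 2053 windows of rises. Among 14370 windows of all genes tested the motif stood in 814 (5.66%), and among all 32851 windows of the RefSeq table in 2320 (7.06%). No test was made of these shares, some genes have several windows, and a match is a description of the letters and not a binding site.

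The largest rises were smaller in size than the largest falls. The 15 largest held transcription factors, signalling proteins and secretory genes. Nkx6-1, a homeobox gene of pancreatic beta cells and motor neurons, stood at 845, 1467 and 741 in dTAG13-treated cells, against 73.9, 43 and 61.5 in DMSO-treated cells. Every dTAG13 library was more than 10 times above its DMSO counterpart (log2 fold change 4.04 ± 0.31, adjusted p = 6.16e-07; chr5:101658139-101664996). Insm1, a zinc finger gene of endocrine and neuronal differentiation, gave 565, 846 and 714 in dTAG13-treated cells, against 78.8, 33.1 and 32.7 in DMSO-treated cells, without overlap between treatments (log2 fold change 3.96 ± 0.32, adjusted p = 9.97e-07). Foxd1, a forkhead gene known from the kidney stroma and the retina, was at 100.4, 136 and 253 with dTAG13 and 19.9, 3.3 and 6.84 with DMSO, with every dTAG13 library at 100 or above (log2 fold change 4.10 ± 0.64, adjusted p = 0.000317). Adcy8, an adenylyl cyclase stimulated by calcium, stood at 714, 793 and 1144 with dTAG13 and 57.2, 26.4 and 23.6 with DMSO (log2 fold change 4.67 ± 0.67, adjusted p = 0.000266). Efhd1, a calcium-binding protein of mitochondria, was at 1384, 381 and 978 with dTAG13 and 60.5, 11.7 and 44.9 with DMSO (log2 fold change 4.61 ± 0.58, adjusted p = 5.31e-05). Gjb2, the gap junction protein connexin 26, was at 493, 680.2 and 178 with dTAG13 and 22.4, 21 and 17.5 with DMSO (log2 fold change 4.21 ± 0.34, adjusted p = 9.43e-07). None of these 3 showed an overlap of the treatments.

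Adamts18, a secreted metalloprotease with the largest fitted rise of the 15, stood at 346, 217 and 119 in dTAG13-treated cells, against 39.8, 0 and 0 in DMSO-treated cells. Since 2 DMSO libraries were listed at 0, the fitted value rests on the pseudocount (log2 fold change 5.92 ± 0.68, adjusted p = 2.39e-05). Fgfr3, an FGF receptor, was at 249, 273 and 591 with dTAG13 and 3.23, 45.8 and 59.1 with DMSO (log2 fold change 3.91 ± 0.75, adjusted p = 0.00188), and Cadps, which primes dense-core vesicles for release, at 398, 253 and 391 with dTAG13 and 64.6, 5.51 and 25.8 with DMSO (log2 fold change 3.92 ± 0.46, adjusted p = 3.05e-05). For both genes the treatments stood apart in every line. Dnah14, an axonemal dynein (5.41), Slc16a12, a transporter of the monocarboxylate family (4.88), Gpr155 (4.03) and Chst8, a sulfotransferase (3.89), rose as well. So did Klk1b3 (4.33), whose reads may be shared with near-identical kallikrein genes. Fgfbp3, an FGF carrier, stood at 107, 246 and 74.9 with dTAG13 and 0, 0 and 58.5 with DMSO. It was called in the full fit (log2 fold change 5.02 ± 1.0, adjusted p = 0.0025) and no longer without line 7H (4.15, adjusted p = 0.0942) or line 7H1 (3.55, adjusted p = 0.0838). Of genes picked after their values were seen, Rab6b, a GTPase of Golgi transport, stood at 1526, 1407 and 1403 with dTAG13 and 123, 173 and 209.8 with DMSO (log2 fold change 3.13 ± 0.21, adjusted p = 2.23e-07), and Lrrc4, a synaptic adhesion protein, at 1951, 2713 and 2092 with dTAG13 and 341, 265 and 256 with DMSO (log2 fold change 2.96 ± 0.23, adjusted p = 8.3e-07).

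**Figure D3:**
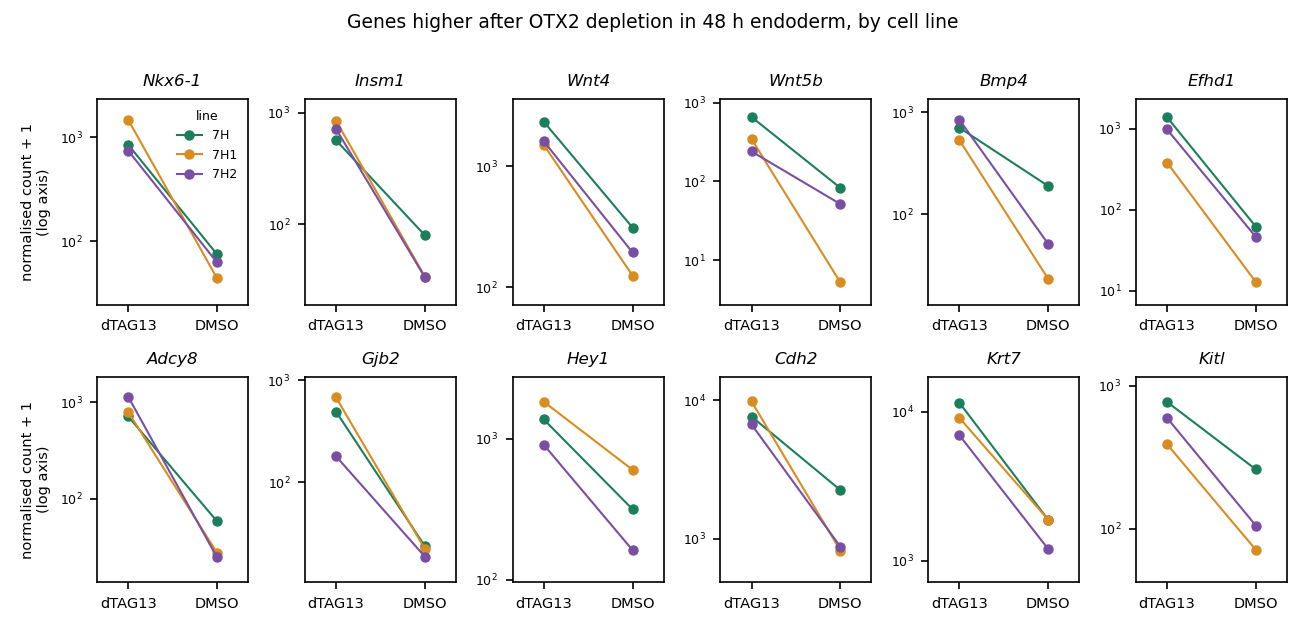
Normalised counts plus 1 on a log axis in dTAG13-treated cells (left) and DMSO-treated cells (right) for 12 genes that rose, with 1 colour per cell line. All dTAG13 values lie above all DMSO values in each panel, and DMSO values of Wnt5b and Bmp4 differ most between lines.

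Definitive endoderm markers split, with losses among the SOXF and GATA factors and no call of Foxa2. Of 23 markers tested, 4 rose (17.4%) and 8 fell (34.8%), with a median log2 fold change of -0.28, beside 14.1% and 13.4% and -0.0037 over all genes tested. Those shares over all genes are the background of every list below, and a list share near them says nothing particular about its members. As the lists were chosen with earlier results of these data known, a share above the background is a description and no test. Sox17, a SOXF factor needed for definitive endoderm, stood at 554, 1906 and 1265 in dTAG13-treated cells, against 4111, 7351 and 3872 in DMSO-treated cells. The highest dTAG13 library lay under the lowest DMSO library (log2 fold change -2.15 ± 0.30, adjusted p = 0.000263). Its relative Sox7 stood at 8.02, 12.1 and 7.68 with dTAG13 and 96.3, 122 and 143 with DMSO (log2 fold change -3.57 ± 0.52, adjusted p = 0.000186). Gata4, a zinc finger factor of endoderm and heart, was at 2188, 3465 and 1544 in dTAG13-treated cells, against 6343, 10412 and 8602 in DMSO-treated cells (log2 fold change -1.87 ± 0.27, adjusted p = 0.000291), and Gata6 at 4713, 6029 and 4273 with dTAG13 and 9457, 13697 and 7749 with DMSO (log2 fold change -1.02 ± 0.20, adjusted p = 0.00278). For these 3 genes the groups were apart, though Gata6 was no longer called without line 7H (-1.02, adjusted p = 0.0509). Cxcr4, the chemokine receptor used to sort endoderm, was at 2234, 2557 and 1874 with dTAG13 and 7122, 8403 and 5297 with DMSO (log2 fold change -1.63 ± 0.20, adjusted p = 6.28e-05), the LIM homeobox gene Lhx1 at 14930.3, 15009.7 and 10014 with dTAG13 and 36902, 49179 and 30883 with DMSO (log2 fold change -1.55 ± 0.24, adjusted p = 0.000776), and the GTPase gene Rab15 at 2524, 2610.1 and 5082 with dTAG13 and 10387, 12261 and 10461 with DMSO (log2 fold change -1.77 ± 0.17, adjusted p = 6.86e-06). Prdm1, a transcriptional repressor known from germ cells and anterior endoderm, fell as well (-1.22 ± 0.21).

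The pioneer factor Foxa2 was not called, at 2830.0, 3813 and 3929 in dTAG13-treated cells, against 2865, 3463 and 2690.3 in DMSO-treated cells, and its groups overlapped (log2 fold change 0.22 ± 0.12, adjusted p = 0.181). Foxa1 had 1787, 2039 and 2868 with dTAG13 and 998, 2007 and 1235 with DMSO, also with overlap, and its call (log2 fold change 0.69 ± 0.24, adjusted p = 0.0448) was lost without line 7H, without line 7H2 and without the line term (adjusted p = 0.12, 0.368 and 0.0512). The T-box factor Eomes (0.08 ± 0.14, adjusted p = 0.721) and the simple epithelial keratin genes Krt8 (0.15 ± 0.13, adjusted p = 0.455), Krt18 (-0.28 ± 0.11, adjusted p = 0.0764) and Krt19 (-0.08 ± 0.15, adjusted p = 0.763) were not called. Rises in the list were led by Kitl, the ligand of the KIT receptor, at 771, 389 and 595 in dTAG13-treated cells, against 258, 69.9 and 104 in DMSO-treated cells (log2 fold change 2.18 ± 0.29, adjusted p = 7.53e-05). Spink1, a trypsin inhibitor, was at 1268, 2167 and 2686 with dTAG13 and 511, 555 and 442 with DMSO (log2 fold change 1.96 ± 0.28, adjusted p = 0.000148), and the tight junction gene Cldn6 also rose (0.64 ± 0.089). The groups did not overlap for Kitl or Spink1. The summed level of the 24 listed markers was 175226 to 215856 with dTAG13 and 217852 to 275580.0 with DMSO, and as the samples are bulk cultures, fewer cells of a type and less RNA per cell cannot be told apart.

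Anterior endoderm genes fell more often than they rose, and the WNT antagonists among them were not uniform. Of 19 genes tested, 3 rose (15.8%) and 9 fell (47.4%), and the median was -0.36. Dkk1, which blocks the WNT co-receptor LRP6, stood at 286, 1204 and 982 in dTAG13-treated cells, against 9362, 11976 and 10859 in DMSO-treated cells. Line 7H had the lowest dTAG13 value, and no library of either group reached the other (log2 fold change -3.93 ± 0.46, adjusted p = 0.000147; chr19:30545863-30549665). Sfrp5, a secreted frizzled-related protein of the foregut, was at 122, 259 and 93.2 in dTAG13-treated cells, against 2972, 3317 and 2556 in DMSO-treated cells (log2 fold change -4.34 ± 0.48, adjusted p = 1.54e-05). Shisa2, which retains frizzled and FGF receptors in the endoplasmic reticulum, was at 1540.0, 1561 and 1484 with dTAG13 and 10225, 14097 and 8128 with DMSO, with nearly the same value in all 3 dTAG13 libraries (log2 fold change -2.79 ± 0.12, adjusted p = 4.26e-09). Gsc, a paired-like homeobox gene of the organizer and prechordal endoderm, was at 1541, 1601 and 751 in dTAG13-treated cells, against 8632, 10939 and 7320.4 in DMSO-treated cells (log2 fold change -2.85 ± 0.15, adjusted p = 2.18e-08; chr12:104471209-104473330). The frizzled receptor gene Fzd5 was at 11339, 10693 and 12518 with dTAG13 and 58058, 63382 and 51974 with DMSO (log2 fold change -2.33 ± 0.11, adjusted p = 9.1e-09). Both genes showed a clear gap between treatments.

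Isl1, which marks foregut and heart progenitors, stood at 40.3, 25.7 and 142 in dTAG13-treated cells, against 1367, 2161 and 1489 in DMSO-treated cells, without overlap (log2 fold change -4.92 ± 0.59, adjusted p = 3.23e-05; chr13:116298281-116309689). Pyy, a gut hormone gene, was at 0.847, 4.74 and 13.9 with dTAG13 and 99.3, 401 and 243 with DMSO (log2 fold change -5.31 ± 0.86, adjusted p = 0.000425). The retinoic acid hydroxylase gene Cyp26a1 went the other way, with 17569, 15859 and 13429 in dTAG13-treated cells, against 6415, 5429 and 3429 in DMSO-treated cells (log2 fold change 1.66 ± 0.12, adjusted p = 3.68e-07). So did Frzb, another secreted frizzled-related protein, with 2787, 2559.6 and 1840.0 with dTAG13 and 1319.8, 631 and 415 with DMSO (log2 fold change 1.75 ± 0.20, adjusted p = 3.13e-05). Groups were apart for all 4 of these genes. Cer1, a secreted antagonist of NODAL, BMP and WNT, overlapped at 61577, 76401 and 59107 in dTAG13-treated cells, against 67064, 65581 and 40829 in DMSO-treated cells (log2 fold change 0.21 ± 0.15, adjusted p = 0.323), as did Hhex, a homeobox gene of the anterior endoderm, at 2088, 3634 and 3459 with dTAG13 and 3735, 5023 and 3269.5 with DMSO (log2 fold change -0.41 ± 0.15, adjusted p = 0.0547). Hhex crossed the threshold without line 7H2 (-0.65, adjusted p = 0.00666). Lefty1, a NODAL antagonist, overlapped between treatments but was lower with dTAG13 within each line (log2 fold change -0.36 ± 0.077, adjusted p = 0.0032); its adjusted p was 0.583 without the line term and 0.0592 without line 7H1. Hesx1 (0.67 ± 0.89), Prox1 (-0.23 ± 0.23), Pax9 (-0.04 ± 0.65) and Sfrp1 (-0.09 ± 0.08) were not called, with adjusted p-values between 0.468 and 0.972. Nkx2-1, Nkx2-3 and Nkx2-6 were not tested.

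Over the wider list of WNT antagonists and feedback inhibitors, 5 of 18 rose and 5 fell (median -0.07). Those that fell were Sfrp5, Dkk1, Shisa2, Dkk3 and Shisa3, and those that rose were Frzb, Apcdd1, Rnf43, Znrf3 and Sfrp2. Rises and falls numbered 3 and 5 without line 7H, 3 and 4 without line 7H1, 4 and 3 without line 7H2 and 3 and 4 without the line term. WNT target genes, which report canonical signalling, rose in 8 of 18 cases (44.4%) and fell in 4 (22.2%), with a median of 0.37. Lgr5, a receptor of R-spondins, stood at 3576, 4907 and 4681 in dTAG13-treated cells, against 1201, 1116 and 927 in DMSO-treated cells, with no overlap (log2 fold change 2.01 ± 0.13, adjusted p = 2.15e-07). The other rises were Sp5, T, Nkd1, Rnf43, Znrf3, Nkd2 and Axin2. Myc, a growth regulator, went down, at 455, 189 and 431 with dTAG13 and 1497, 1723 and 1635 with DMSO (log2 fold change -2.27 ± 0.21, adjusted p = 9.03e-06), as did Ascl2, a helix-loop-helix factor, at 31.3, 17 and 21.2 with dTAG13 and 213, 719.6 and 204 with DMSO (log2 fold change -3.75 ± 0.41, adjusted p = 1.43e-05). Dkk1 and Lef1 were the other falls. Without line 7H1 the target counts were 4 and 5 and the median -0.15, and without the line term the counts were 4 and 3. The summed level of the targets was 10423 to 11774 with dTAG13 and 17829 to 18432 with DMSO. Dkk1 alone gave 286, 1204 and 982 of these sums with dTAG13 and 9362, 11976 and 10859 with DMSO. The gap between the sums comes from this gene, so they do not report the level of the other targets.

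Of the WNT ligands and receptors, 8 of 29 rose and 7 fell (median 0.04), and the largest rises were those of ligands. Wnt4 stood at 2332, 1499 and 1607 in dTAG13-treated cells, against 309, 123 and 192 in DMSO-treated cells (log2 fold change 3.19 ± 0.28, adjusted p = 2.25e-06; chr4:137277489-137299726). Wnt5b was at 654, 344 and 239 with dTAG13 and 81.5, 4.19 and 50.4 with DMSO, with its lowest DMSO value in line 7H1 (log2 fold change 3.75 ± 0.52, adjusted p = 0.000301). Wnt11, a ligand of the planar polarity pathway, was at 363, 222 and 228 with dTAG13 and 131, 60.4 and 68.9 with DMSO (log2 fold change 1.68 ± 0.20, adjusted p = 3.6e-05). All 3 ligands had every dTAG13 library above every DMSO library. Wnt5a fell, at 435, 650.5 and 299 with dTAG13 and 1091, 1010.3 and 1281 with DMSO (log2 fold change -1.35 ± 0.25, adjusted p = 0.00128), and so did Fzd10 (-1.42 ± 0.16) beside Fzd5.

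NODAL co-receptor genes were among the falls of their pathway. Of 22 NODAL pathway genes, 3 rose (13.6%) and 7 fell (31.8%), with a median of -0.14. The share of rises lay near the 14.1% over all genes tested. Cfc1, an EGF-CFC co-receptor, stood at 27.8, 103 and 97.2 in dTAG13-treated cells, against 353, 1008 and 245 in DMSO-treated cells (log2 fold change -2.74 ± 0.32, adjusted p = 2.97e-05). Tdgf1, its relative Cripto, was at 456, 186 and 1638 with dTAG13 and 1979.8, 941 and 4868 with DMSO, where lines differed so much that the treatments overlapped although each line was lower with dTAG13 (log2 fold change -2.01 ± 0.14, adjusted p = 4.27e-07). Fst, follistatin, an activin-binding protein named here after its values were seen, stood at 242, 178 and 90.2 in dTAG13-treated cells, against 64, 0 and 34.9 in DMSO-treated cells, without overlap (log2 fold change 3.58 ± 0.92, adjusted p = 0.0186). It was not called without line 7H or 7H2 (adjusted p = 0.0962 and 0.0554), and its fold change was 1.62 without line 7H1, whose DMSO library is listed at 0. Smad3, which carries the signal to the nucleus, rose (0.66 ± 0.13), and the ligand gene Nodal was not called (-0.02 ± 0.12, adjusted p = 0.911). Rises and falls numbered 2 and 5 without line 7H, 2 and 2 without line 7H1, 2 and 3 without line 7H2 and 2 and 2 without the line term. In the BMP pathway, 10 of 28 genes rose and 7 fell (median -0.25). Bmp4, a ligand, stood at 705, 533 and 846 in dTAG13-treated cells, against 188, 22.3 and 50.2 in DMSO-treated cells, with groups apart in every line (log2 fold change 3.49 ± 0.37, adjusted p = 1.15e-05). Id4, a BMP target, was at 802, 407 and 381 with dTAG13 and 189, 73.8 and 85.1 with DMSO (log2 fold change 2.23 ± 0.29, adjusted p = 7.65e-05), and Fstl1, a secreted BMP-binding protein, at 11336, 13050.5 and 9614 with dTAG13 and 4824, 4649 and 4239.7 with DMSO (log2 fold change 1.30 ± 0.09, adjusted p = 2.67e-07). Bambi, a decoy receptor, was at 277, 369 and 296 with dTAG13 and 946, 1079 and 853 with DMSO (log2 fold change -1.61 ± 0.12, adjusted p = 4.77e-07). LDN was present in both treatments. Rises and falls numbered 6 and 3 without line 7H, 6 and 4 without line 7H1 and 6 and 4 without the line term. The BMP median was -0.001 without line 7H and -0.014 without line 7H1.

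FGF genes were split, with 9 of 25 risen and 8 fallen (median 0.16). Fgf10, a ligand known from foregut and lung, stood at 3626, 4674 and 1668 in dTAG13-treated cells, against 880.1, 1126 and 618 in DMSO-treated cells, and Fgf5, a ligand of the epiblast, at 7611, 8371 and 6025 in dTAG13-treated cells, against 14316, 19409 and 16269 in DMSO-treated cells. Fgf10 was higher and Fgf5 lower with dTAG13 in every line, without overlap (1.84 ± 0.14 and -1.19 ± 0.11 on the log2 scale, adjusted p = 7.43e-07 and 3.35e-06). The decoy receptor Fgfrl1 (1.54 ± 0.12) and the feedback inhibitor Spry1 (1.44 ± 0.10) rose. Among retinoic acid genes, 3 of 21 rose (14.3%) and 7 fell (33.3%), with a median of -0.38. The share of rises lay near the 14.1% over all genes tested. Rdh10, which makes retinal from retinol, stood at 2703, 1895 and 2156 in dTAG13-treated cells, against 807, 202 and 419 in DMSO-treated cells (log2 fold change 2.44 ± 0.21, adjusted p = 1.9e-06). The receptor gene Rxrg fell, at 6.33, 0.912 and 10.5 with dTAG13 and 24.3, 18.2 and 28 with DMSO (log2 fold change -2.15 ± 0.31, adjusted p = 0.00015). The third rise beside Rdh10 and the carrier gene Rbp4 was Cyp26a1, described above, whose product breaks retinoic acid down. The falls numbered 4 without line 7H2.

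Of the NOTCH genes, 5 of 22 rose (22.7%) and 4 fell (18.2%), with a median of -0.17, beside 14.1% and 13.4% over all genes tested. The HEY effectors moved in opposite directions. Hey1 stood at 1371, 1829 and 906 in dTAG13-treated cells, against 315, 601 and 161 in DMSO-treated cells (log2 fold change 2.07 ± 0.19, adjusted p = 3.99e-06). Hey2 was at 14, 0.936 and 6.92 in dTAG13-treated cells, against 88, 306 and 191 in DMSO-treated cells (log2 fold change -4.83 ± 0.67, adjusted p = 0.00012). Neither gene's groups overlapped. The ligand gene Jag1 rose (1.32 ± 0.18), and Rbpj, the DNA-binding partner of NOTCH, fell (-0.73 ± 0.058). Of the hedgehog genes, 1 of 14 rose (7.14%) and 4 fell (28.6%), with a median of 0.00. The falls were led by the co-receptor gene Gas1 at 391, 357 and 165 with dTAG13 and 1304, 2627 and 2063 with DMSO (log2 fold change -2.75 ± 0.25, adjusted p = 4.85e-06). Among guidance genes, 16 of 41 rose (39%) and 9 fell (22%), with a median of 0.35. The losses were the larger ones. Nrp2, a co-receptor of class 3 semaphorins and VEGF, stood at 432, 429 and 863 in dTAG13-treated cells, against 5649, 8886 and 9104 in DMSO-treated cells (log2 fold change -3.82 ± 0.20, adjusted p = 2.14e-08; chr1:62703285-62818695). Plxnc1, a semaphorin receptor, was at 12.6, 2.7 and 11.9 with dTAG13 and 184, 152 and 164 with DMSO (log2 fold change -4.27 ± 0.34, adjusted p = 9.97e-07), and Sema6d, a membrane semaphorin, at 984, 1149 and 839 with dTAG13 and 7943, 12404 and 9417 with DMSO (log2 fold change -3.31 ± 0.25, adjusted p = 1.29e-06). All 3 had dTAG13 and DMSO values far apart. The receptor gene Epha1 rose (1.14 ± 0.13). Guidance counts were 9 and 9 without line 7H1, hedgehog counts 0 and 2 without the line term, with 0 rises also without line 7H1 or 7H2, and NOTCH counts 5 and 2 without the line term.

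Markers of other cell types were read as lists, since the cultures could hold other cells. Visceral endoderm genes, which overlap definitive endoderm in use, rose in 3 and fell in 8 of 15 cases (median -0.49), and their sum was 21019.6 to 22420.2 with dTAG13 and 22584 to 26542 with DMSO. The endocytic adaptor gene Dab2 rose, at 2255, 1485 and 813 with dTAG13 and 385, 137 and 158 with DMSO (log2 fold change 2.78 ± 0.28, adjusted p = 7.77e-06), with Apob and Rbp4, which code for lipid and retinol carriers. The coregulator gene Cited1 fell, at 137, 163 and 207 with dTAG13 and 758, 591 and 627 with DMSO (log2 fold change -1.97 ± 0.27, adjusted p = 0.00011), with Apoa1, Amn, Cubn, Lrp2, Sox7, Lgmn and Slc39a8, among which Amn, Cubn and Lrp2 code for endocytic receptor subunits. Of the 20 listed, Ttr, Afp, Apoa4, Fgb and Spp2 were not tested, and the counts were 2 and 5 without line 7H1. Primitive streak genes gave 8 rises and 7 falls of 21 (median 0), with sums of 22496 to 32542 with dTAG13 and 52795 to 72821 with DMSO, and Mesp1 was listed at 0 in all 6 libraries. Lhx1 and Gsc, described above, are on this list too and held most of the sums with DMSO. The gap between the sums comes from these genes and is not shared by the rest of the list. Mixl1, a homeobox gene of the streak, stood at 440.5, 476 and 217 in dTAG13-treated cells, against 169, 55.2 and 36.4 in DMSO-treated cells (log2 fold change 2.34 ± 0.22, adjusted p = 1.01e-05), and T, the brachyury gene, also rose. Streak counts were 4 and 6 without line 7H1, 4 and 6 without line 7H2 and 3 and 6 without the line term.

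Mesoderm genes rose in 4 and fell in 4 of 24 cases (16.7% each, median -0.17), near the 14.1% and 13.4% over all genes tested. Their sums were 3287 to 4977 with dTAG13 and 4674 to 6139 with DMSO, and both Mesp1 and Mef2c were listed at 0 in all 6 libraries. Tbx1, a T-box gene of pharyngeal tissues, stood at 21, 0 and 21.6 in dTAG13-treated cells, against 318, 495 and 353 in DMSO-treated cells (log2 fold change -5.59 ± 1.08, adjusted p = 0.00167). Mesoderm counts were 1 and 3 without line 7H1, 1 and 4 without line 7H2 and 0 and 3 without the line term. By limma 0 endothelial and blood genes rose, also at an unadjusted p under 0.05, and 4 of 15 fell, with sums of 23996 to 26046 with dTAG13 and 33936 to 46618 with DMSO. Flt1, a VEGF receptor that holds most of this sum, stood at 19294, 20701 and 18542 with dTAG13 and 28846, 39578 and 27599 with DMSO (log2 fold change -0.70 ± 0.11, adjusted p = 0.00035), and the falls numbered 2, 2 and 1 without lines 7H, 7H1 and 7H2 and 2 without the line term. Markers of trophoblast and surface ectoderm rose in 2 (12.5%) and fell in 3 (18.8%) of 16 cases, the rises near the 14.1% over all genes tested. Their sums were 12142 to 18191 with dTAG13 and 7357 to 8252 with DMSO. The AP-2 factor Tfap2c rose (1.58 ± 0.12), as did the keratin gene Krt7, which stood at 11569, 9149 and 6984 in dTAG13-treated cells, against 1881, 1886 and 1196 in DMSO-treated cells (log2 fold change 2.48 ± 0.13, adjusted p = 2.03e-08). Krt7 held most of the sums with dTAG13. The part of any of these cell types in the results was not tested.

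Neural genes changed in both directions, 5 up and 7 down of 24 (median -0.69), and their sum was 12485 to 15279 with dTAG13 and 12715 to 16379 with DMSO. Pax3, a paired box gene of the dorsal neural tube, stood at 4.6, 8.56 and 5.63 in dTAG13-treated cells, against 312, 218 and 255 in DMSO-treated cells (log2 fold change -5.20 ± 0.54, adjusted p = 9.37e-06). Rax, a homeobox gene of the eye field, was at 127, 141 and 89.6 in dTAG13-treated cells, against 1508, 2157 and 1569 in DMSO-treated cells (log2 fold change -3.87 ± 0.57, adjusted p = 0.000198). Both genes stood far under their DMSO values in every line. En2, Sox1, Sox10, Sox3 and Zic2 rose. Neural counts were 1 and 8 without line 7H1 and 3 and 7 without line 7H. Primed pluripotency genes fell in 9 of 19 cases (47.4%) and rose in 3, with a median of -0.48 and sums of 106470.0 to 106564 with dTAG13 and 125329 to 138268 with DMSO. Sall4 stood at 4325, 4603 and 5317 in dTAG13-treated cells, against 12050.0, 14870.4 and 10979 in DMSO-treated cells (log2 fold change -1.41 ± 0.097, adjusted p = 2.74e-07). Pou5f1, which encodes OCT4, was at 889, 367 and 1874 with dTAG13 and 2941, 749 and 5796 with DMSO; each line was lower with dTAG13, the treatments overlapped across lines, and the adjusted p was 1.92e-06 with and 0.0881 without the line term. Epiblast counts were 1 and 9 without line 7H, 1 and 10 without line 7H1 and 2 and 6 without the line term. In the naive pluripotency list, 2 of 14 rose (14.3%, near the 14.1% over all genes tested, and 1 without line 7H or 7H2) and 4 fell (28.6%). Among the falls was Esrrb at 76.5, 62.5 and 54.9 with dTAG13 and 424, 417 and 279.8 with DMSO (log2 fold change -2.50 ± 0.47, adjusted p = 0.00126).

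Lists of later endodermal fates were read next. Posterior endoderm genes fell in 4 and rose in 1 of 15 cases (median -0.45; 2 and 3 risen and fallen, with a median of -0.05, without line 7H; 1 and 2 without line 7H2), the rise being Wnt5b. The sum of the list was 700.5 to 1237 with dTAG13 and 1170.3 to 1866 with DMSO. Liver and pancreas progenitor genes rose in 3 and fell in 5 of 13 cases (median -1.15). Without line 7H1 the counts were 2 and 3 and the median -0.19, and quantile normalisation gave a median of -0.23. The summed level of the list was higher with dTAG13, at 11474 to 18926 with dTAG13 and 5188 to 7348 with DMSO. Apoe, a lipoprotein component, stood at 11054, 16329.8 and 9835 in dTAG13-treated cells, against 4005, 6561 and 3925 in DMSO-treated cells (log2 fold change 1.37 ± 0.11, adjusted p = 7.07e-07). It held most of the sum in both treatments. Pdx1, the homeobox gene of pancreas and duodenum, was low in all libraries, at 2, 0 and 0.769 with dTAG13 and 63.1, 15.5 and 36.4 with DMSO (log2 fold change -4.29 ± 0.81, adjusted p = 0.00138). Both kept the groups apart. Tbx3, a T-box repressor of liver bud cells, fell (-2.20 ± 0.40). Of the gut peptide genes, Insm1 rose and 4 of 12 fell (median -1.30), namely Pyy, Neurod1, Pcsk2 and Chga, though Pcsk2 was not called without line 7H1 or 7H2 (adjusted p = 0.0518 and 0.0698). Chga, a chromogranin of secretory granules, was at 4792, 4465 and 2036 with dTAG13 and 10831, 9995 and 5057 with DMSO, where line 7H2 was lowest in each treatment (log2 fold change -1.22 ± 0.12, adjusted p = 5.76e-06).

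Epithelial junction genes rose in 10 and fell in 4 of 38 cases (median -0.02), and mesenchymal genes fell in 10 and rose in 3 of 24 (median -0.60). Cdh2, N-cadherin, is on both lists and stood at 7624, 9799.6 and 6688 in dTAG13-treated cells, against 2246, 821 and 875 in DMSO-treated cells (log2 fold change 2.76 ± 0.24, adjusted p = 1.18e-05). The claudin genes Cldn4, at 11074, 9892 and 13849.6 with dTAG13 and 4109, 3203 and 3889 with DMSO (log2 fold change 1.63 ± 0.12, adjusted p = 4.35e-07), and Cldn7 (0.79 ± 0.081) rose, although Cldn4 had an adjusted p of 0.115 without the line term. Acta2, a smooth muscle actin, stood at 2078, 1092 and 2761 in dTAG13-treated cells, against 8556, 6275 and 9002 in DMSO-treated cells (log2 fold change -2.09 ± 0.27, adjusted p = 5.78e-05), and the matrix protein gene Sparc also fell (-0.95 ± 0.11). The groups of Cdh2, Cldn4 and Acta2 did not overlap. Mesenchymal falls numbered 5, 6 and 8 without lines 7H, 7H1 and 7H2 and 5 without the line term, and junction counts were 5 and 3 without it and 7 and 2 without line 7H1. Contractile genes fell in 7 of 21 cases and 1 rose (median -0.55), and 4 fell and none rose without line 7H1 (0 rises without 7H or 7H2 either). Tnnt1, a troponin of slow muscle, stood at 209.7, 176 and 216 in dTAG13-treated cells, against 8914, 13008 and 10477 in DMSO-treated cells, a separation larger than that of any other member of the list (log2 fold change -5.73 ± 0.35, adjusted p = 8.32e-08; chr7:4504570-4516382).

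Basement membrane genes rose in 8 and fell in 4 of 30 cases (median 0.05), and the count of rises was 5 without the line term. The neighbouring collagen IV genes rose together, Col4a1 at 17714, 11155 and 9262 in dTAG13-treated cells, against 8208, 4106 and 3492 in DMSO-treated cells (log2 fold change 1.32 ± 0.10, adjusted p = 8.26e-07) and Col4a2 by 1.29 ± 0.13. The laminin chain gene Lamc1 stood at 13124, 10718 and 10250.2 with dTAG13 and 22497, 24942 and 21430.4 with DMSO (log2 fold change -1.02 ± 0.096, adjusted p = 3.86e-06), and Col18a1 fell as well (-1.0 ± 0.15). Of the chemokine and apelin genes, 4 of 15 rose and 5 fell (median -0.57, or -0.14 without line 7H1; 2 and 5 without line 7H2 and 3 and 3 without the line term). Apela, a ligand of the apelin receptor, was lower within each line, at 288, 156 and 590.4 with dTAG13 and 1210.3, 575 and 1443 with DMSO (log2 fold change -1.74 ± 0.14, adjusted p = 8.05e-07), and Rgs5, a regulator of G protein signalling, was higher, at 1367, 509 and 1344 with dTAG13 and 220.2, 66.1 and 101 with DMSO (log2 fold change 3.09 ± 0.42, adjusted p = 0.000106). In the Hippo list, 5 of 18 rose (27.8%) and 3 fell (16.7%), beside 14.1% and 13.4% over all genes tested. Hippo counts were 2 and 3 without line 7H, 1 and 1 without line 7H1 and 4 and 1 without the line term. Amot, an angiomotin that holds YAP in the cytoplasm, stood at 90357, 75888 and 71769.5 in dTAG13-treated cells, against 215013, 230373 and 162015 in DMSO-treated cells (log2 fold change -1.34 ± 0.079, adjusted p = 6.69e-08; chrX:145446425-145505181). Yap1 itself rose slightly (0.33 ± 0.07, not called without line 7H, adjusted p = 0.089, or line 7H1, adjusted p = 0.061).

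Stress and lipid genes moved mostly upward by small amounts. Of 21 genes of the unfolded protein and integrated stress responses, 14 rose (66.7%) and 0 fell by limma (1 was lower at an unadjusted p under 0.05), with a median of 0.50. Ddit3, the stress factor CHOP, stood at 844, 362 and 431 in dTAG13-treated cells, against 238, 172 and 231 in DMSO-treated cells (log2 fold change 1.26 ± 0.21, adjusted p = 0.000481), and Asns, asparagine synthetase, at 7809.5, 6070.4 and 5351 with dTAG13 and 4279, 3529.8 and 3755 with DMSO (log2 fold change 0.72 ± 0.099, adjusted p = 0.000115). Both had every dTAG13 library above every DMSO library. The endoplasmic reticulum chaperone gene Hsp90b1 rose too (0.61 ± 0.11), with overlap. The rises numbered 10 without line 7H, 6 without line 7H1 and 10 without the line term. Lipid and sterol synthesis genes rose in 11 of 20 cases (55%) and fell in 3 (median 0.24). Acaca, which makes malonyl-CoA, stood at 6193, 5046 and 3151 in dTAG13-treated cells, against 2623, 1589 and 2228 in DMSO-treated cells (log2 fold change 1.14 ± 0.16, adjusted p = 0.00029), and the desaturase gene Scd2 rose (0.64 ± 0.067). Abca1, a cholesterol exporter, was at 663, 158 and 141 with dTAG13 and 1555, 1012 and 1019 with DMSO (log2 fold change -2.25 ± 0.30, adjusted p = 9.37e-05). Lipid counts were 4 and 2 without line 7H1 and 6 and 1 without the line term.

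Immediate early genes rose in 7 and fell in 2 of 22 cases (median -0.07), led by Maff, a small MAF factor, at 3592, 3609.7 and 2654 in dTAG13-treated cells, against 1282, 1241 and 1266 in DMSO-treated cells (log2 fold change 1.36 ± 0.11, adjusted p = 1.07e-06). The AP-1 genes Junb (0.98 ± 0.14) and Jun (0.55 ± 0.077) rose, Jun with an adjusted p of 0.0942 without the line term, and the counts were 5 and 1 without line 7H, 4 and 3 without line 7H1 and 2 and 1 without the line term. Of the p53 and apoptosis genes, 7 of 20 rose and 2 fell (median 0.10; 4 and 1 without line 7H1 and 2 and 2 without the line term). Hypoxia and glycolysis genes fell in 8 and rose in 3 of 24 cases (median -0.22; 1 and 7 without line 7H, 1 and 6 without line 7H1 and 1 and 5 without the line term). Slc2a1, the glucose transporter GLUT1, stood at 5387, 7694 and 12149 in dTAG13-treated cells, against 21583, 39646 and 36111 in DMSO-treated cells, without overlap (log2 fold change -1.98 ± 0.16, adjusted p = 2.13e-06). Of 30 cell cycle genes, 4 rose and 1 fell (13.3% and 3.33%), with the rises near the 14.1% over all genes tested. The cell cycle counts were 0 and 3 without line 7H1, 2 and 3 without line 7H2 and 1 and 0 without the line term. Imprinted genes fell in 7 and rose in 2 of 18 cases (median -0.29; 1 and 6 without line 7H, 1 and 4 without line 7H2 and 0 and 3 without the line term). Dlk1, a paternally expressed NOTCH-like ligand, stood at 7.26, 4.39 and 11.4 in dTAG13-treated cells, against 142, 268 and 277 in DMSO-treated cells (log2 fold change -4.75 ± 0.35, adjusted p = 4.59e-07), and Peg3, a zinc finger gene, at 11294, 14544 and 19433 with dTAG13 and 36771, 43919 and 37846 with DMSO (log2 fold change -1.42 ± 0.14, adjusted p = 8.55e-06). The treatments were apart for both.

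**Figure D4:**
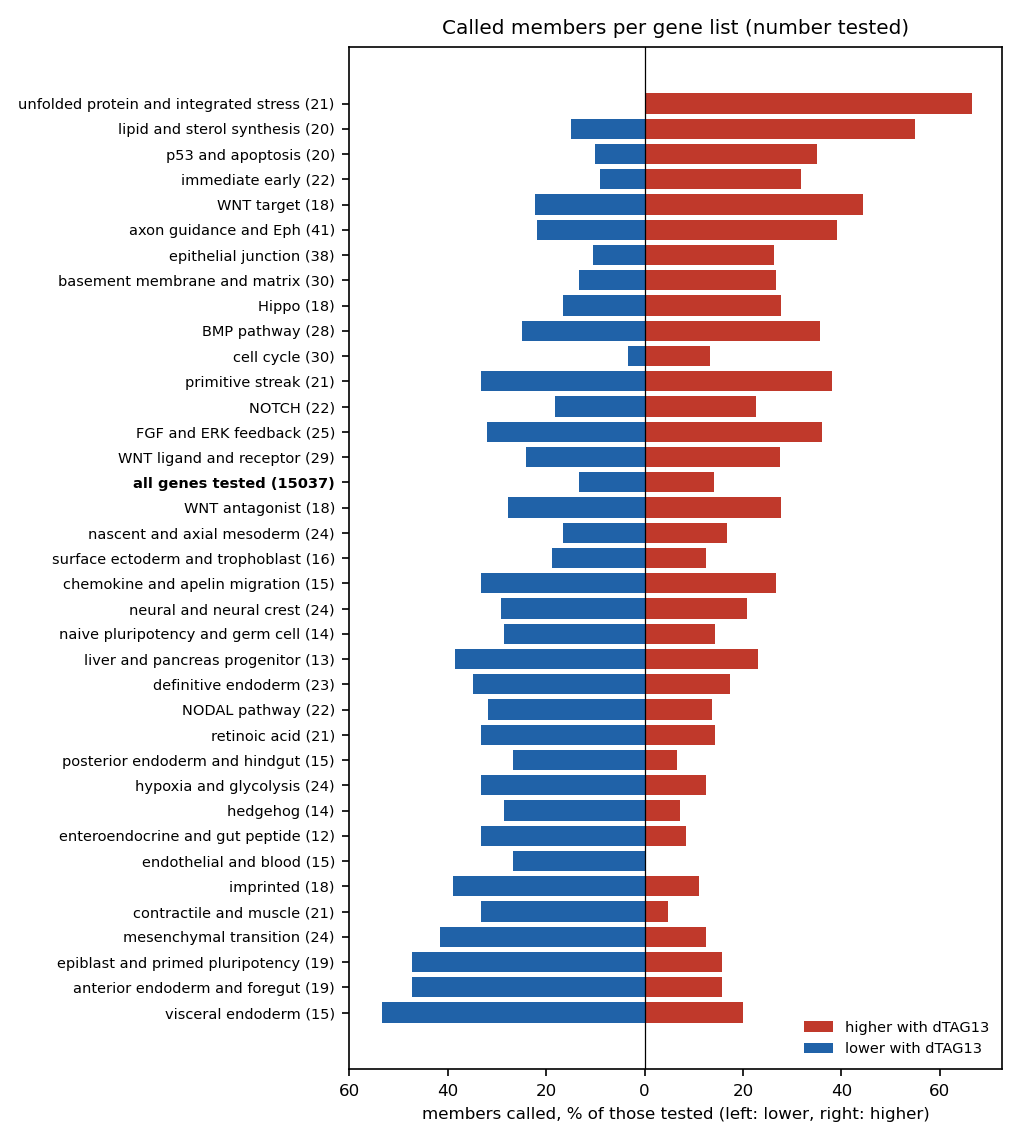
Share of the tested members of each gene list that rose (red, to the right) or fell (blue, to the left) with dTAG13 at 48 h, in percent of the members tested, whose number stands in parentheses. All genes tested are in bold, at 14.1% and 13.4%. The unfolded protein list is at the top with 66.7% risen, and the visceral endoderm list at the bottom with 53.3% fallen.

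The effect at 48 h was set against that at 24 h, DE1, measured in the same lines with other libraries. The labels give 21 h of dTAG13 or DMSO at 24 h as well. In 24 h endoderm, 1216 genes rose (8.09%) and 1160 fell (7.71%). Of the genes called at 48 h, 31.6% were also called at 24 h, which is 55% of the 24 h calls, and of these 1307 genes 1049 had the same direction and 258 the opposite one. The 2 effects correlated across genes with Pearson's r = 0.322, where genes are not independent replicates. The difference of the effects was called for 2258 genes (15%), of which 1146 (7.62%) were more positive and 1112 (7.4%) more negative at 48 h. Rescaling the libraries to equal totals changed that split to 835 and 1287, so that 39.3% of the differences were positive, against 50.8% with the values as deposited. The count was 1070, 938 and 1171 without lines 7H, 7H1 and 7H2, and 895 without the line term.

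Several of the largest differences belonged to genes that fell at 48 h, with values given above. Pyy was at 0.825, 13.5 and 4.37 with dTAG13 and 0.933, 0 and 0 with DMSO at 24 h (difference of effects -7.37 ± 1.21, adjusted p = 0.00129). Its size moved to -8.18 with a pseudocount of 0.5 and -5.34 with 5. Best2 was at 10.9, 0 and 14 with dTAG13 and 0, 0 and 0 with DMSO at 24 h, so the size of its difference depends on the pseudocount (difference of effects -9.10 ± 1.52, adjusted p = 0.00142, against -10.4 with a pseudocount of 0.5 and -6.24 with 5, both called). It was not called without line 7H (adjusted p = 0.0519). Tlx1 had a fitted change of -2.92 at 24 h (difference of effects -6.02 ± 0.96, adjusted p = 0.00105) and Crtac1 one of -0.87 (difference of effects -5.74 ± 1.06, adjusted p = 0.00271). Rbm24, with -1.75 at 24 h, had a difference of the same order (difference of effects -6.31 ± 1.02, adjusted p = 0.00179) that was not called without line 7H (adjusted p = 0.065). For Reg4 and C1ql2 every dTAG13 library at 24 h was above every DMSO library. At 48 h Reg4 was not called and its groups overlapped (log2 fold change -0.86, adjusted p = 0.263). C1ql2 fell at 48 h (-3.09, adjusted p = 0.00227) but was not called without line 7H1 or 7H2 (adjusted p = 0.0827 and 0.0802). Reg4, a secreted lectin of gut epithelium, stood at 40.9, 81.4 and 76.2 with dTAG13 and 1.13, 0.861 and 1.6 with DMSO at 24 h and at 151, 72.9 and 49.5 with dTAG13 and 338, 91.9 and 106 with DMSO at 48 h (difference of effects -5.74 ± 0.75, adjusted p = 0.000295). C1ql2, a secreted protein of the C1q family, stood at 479, 326 and 470.1 with dTAG13 and 102, 46.2 and 58.2 with DMSO at 24 h and 4, 0 and 1.54 with dTAG13 and 5.82, 19.9 and 53.9 with DMSO at 48 h (difference of effects -5.76 ± 0.89, adjusted p = 0.000831).

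The reverse pattern, a fall at 24 h that was not seen at 48 h, was led by Hnf4a, a nuclear receptor of liver and gut. It stood at 1.95, 0 and 0 with dTAG13 and 27.4, 57.4 and 113 with DMSO at 24 h (-5.32 ± 0.91, adjusted p = 0.00118). At 48 h it read 16.6, 299.8 and 584 in dTAG13-treated cells, against 41.7, 211 and 58.9 in DMSO-treated cells, with overlap (log2 fold change 0.84 ± 0.91, adjusted p = 0.55). The difference between the stages (difference of effects 6.16 ± 1.29, adjusted p = 0.00585) was not called without line 7H1 or 7H2 (adjusted p = 0.0915 and 0.103). Alx1, a paired-like homeobox gene of the head mesenchyme, stood at 10.9, 9.38 and 4.13 with dTAG13 and 238, 385 and 380.1 with DMSO at 24 h and at 275, 234 and 803 with dTAG13 and 320.2, 841 and 517 with DMSO at 48 h (difference of effects 4.78 ± 1.0, adjusted p = 0.00564; adjusted p = 0.0556 without line 7H). Ism2, a secreted protein, stood at 3.92, 31.9 and 16.5 with dTAG13 and 241, 250.2 and 256 with DMSO at 24 h and at 84, 112 and 76.4 with dTAG13 and 53.8, 75.5 and 53.1 with DMSO at 48 h (difference of effects 4.71 ± 0.66, adjusted p = 0.00044). Serpinb6c, whose reads may be shared with close serpin relatives, had an effect of -5.22 at 24 h and -0.10 at 48 h (difference of effects 5.12 ± 0.99, adjusted p = 0.00352, or 0.0636 without line 7H1). Efhd1, which rose at 48 h, had a 24 h effect of -0.86 (difference of effects 5.47 ± 0.82, adjusted p = 0.000709). It was near 0 in both treatments at 24 h, at 5.77, 4.13 and 0 with dTAG13 and 8.76, 3.32 and 3.97 with DMSO. A change at 24 h could therefore hardly be seen for this gene. No difference was called for Nkx6-1 (5.01 at 24 h, difference of effects -0.97 ± 0.44, adjusted p = 0.161) or Adcy8 (4.34 at 24 h, difference of effects 0.34 ± 0.95, adjusted p = 0.863), which does not show that their effects are equal. Crx stood at 0, 0 and 0 with dTAG13 and 33.1, 36.7 and 40.7 with DMSO at 24 h, and no fold is given against a group listed at 0.

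**Figure D5:**
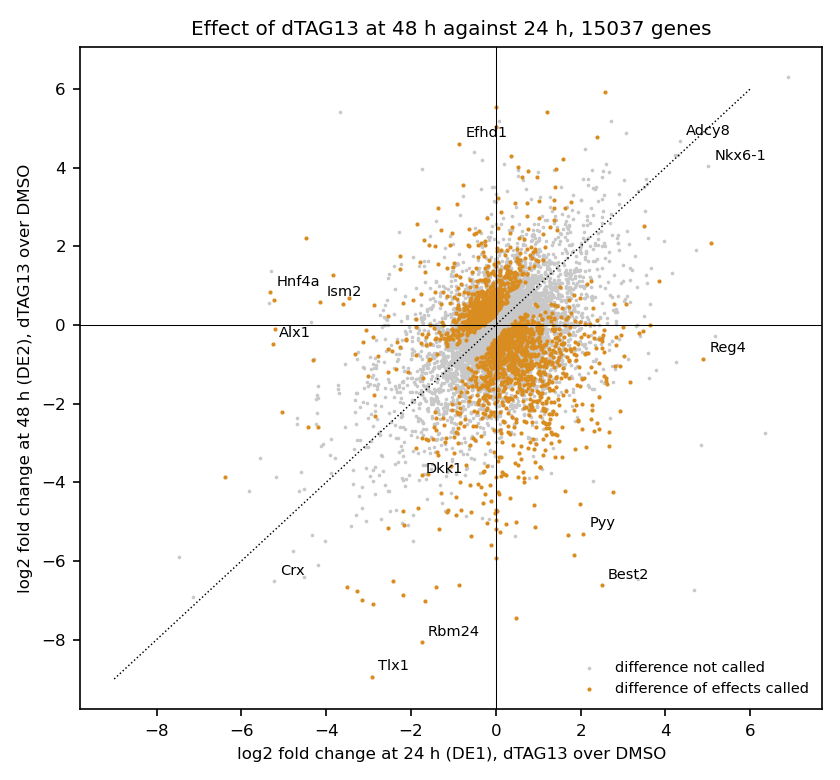
Each point is 1 of 15037 genes, with the log2 fold change of dTAG13 over DMSO at 24 h on the x axis and at 48 h on the y axis. Orange points have a called difference of effects, and the dotted line marks equal effects. Best2 and Pyy lie low and to the right of 0, Hnf4a, Alx1 and Ism2 to the left at 48 h values of 0.84, -0.48 and 0.57, and Nkx6-1 and Adcy8 high on the right.

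Levels at both stages, given as means ± SD of 3 libraries with no test, placed the falls at 48 h in different settings. Each stage had its own 21 h of treatment. The dTAG13 levels at 24 h and 48 h are therefore not a time course of the same depleted cells. Wscd1 stood at 24.1 ± 10.1 with dTAG13 and 2759 ± 98.8 with DMSO at 48 h, and at 23.5 ± 1.51 with dTAG13 and 114 ± 31.5 with DMSO at 24 h. Its DMSO level was thus higher at 48 h than at 24 h, and the dTAG13 level at 48 h lay close to that at 24 h. Sec14l2 showed the same order, with 398 ± 130.2 with dTAG13 and 13163 ± 2033 with DMSO at 48 h and 473 ± 68.2 with dTAG13 and 2173 ± 519.7 with DMSO at 24 h. Isl1 was at 69.4 ± 63.6 with dTAG13 and 1673 ± 428 with DMSO at 48 h, and at 6.67 ± 2.96 with dTAG13 and 49 ± 18.7 with DMSO at 24 h. Gata4 was another gene with a higher DMSO level at 48 h, at 2399 ± 978 with dTAG13 and 8452 ± 2039 with DMSO at 48 h and 3869 ± 288 with dTAG13 and 3208 ± 502 with DMSO at 24 h. Sox17, Gsc and Pax7 had DMSO levels at 24 h that were as high or higher. Sox17 was at 1242 ± 676 with dTAG13 and 5111 ± 1943 with DMSO at 48 h and at 3092 ± 707 with dTAG13 and 11775 ± 1075 with DMSO at 24 h. Gsc stood at 1298 ± 474 with dTAG13 and 8964 ± 1832 with DMSO at 48 h, and at 7007 ± 229 with dTAG13 and 13963 ± 814 with DMSO at 24 h. Pax7 was at 4.03 ± 2.57 with dTAG13 and 483 ± 187 with DMSO at 48 h and 43.7 ± 12.3 with dTAG13 and 495 ± 81.8 with DMSO at 24 h. Among the rises, Wnt4 stood at 1813 ± 453 with dTAG13 and 208 ± 94.1 with DMSO at 48 h and 86.1 ± 17.4 with dTAG13 and 33.3 ± 9.83 with DMSO at 24 h, so its highest level was in depleted 48 h cells. Cdh2 was at 8037 ± 1597 with dTAG13 and 1314 ± 808 with DMSO at 48 h, and at 16220.0 ± 682 with dTAG13 and 9736 ± 771 with DMSO at 24 h.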

How the data were processed

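RNA was measured by sequencing of polyA libraries from 24 cultures, of which the 6 at 48 h of endoderm culture are compared here. The deposited values are a signal, normalised read counts per gene made by the authors, with DESeq2 and mm10 named in the submitters' processing notes; for the aligner, counter, strand setting and annotation, the sources used here give nothing. Low values did not resolve into whole reads (59 to 70.7% of values under 6 lay within 0.1 of a whole read in the 6 libraries), so no count model was used. Samples were grouped by their titles, and 0 value columns were left unused.

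Of 18205 genes, the 15037 that reached 10 in 3 or more libraries were tested as log2(value + 1) with limma 3.58.1 in R 4.3.3 (moderated test with trend and robust variance, Benjamini-Hochberg adjustment over all genes tested, threshold 0.05). The fit held all 24 libraries, with a dTAG13 effect for each stage and cell line within stage as a block, which left 8 residual degrees of freedom. The line names pair the samples: the deviations of dTAG13 and DMSO libraries from their group means correlated at 0.137, 0.183 and 0.187 within lines and at -0.128 to -0.0466 between lines. Differences of effects between 48 h and 24 h were contrasts of the same fit. A fit without the line block, other pseudocounts, filters and scalings, the 48 h libraries alone and leaving out each line were tried. The scripts were tested on simulated data.

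Named genes were Otx2, the 15 largest called rises and falls with a mean of at least 50, the same sign in all 3 lines and a symbol that is no predicted-gene name, up to 4 called members with the smallest p of each of 36 gene lists, defining endoderm markers, and the 8 largest called differences in each direction among genes with a mean of at least 50 over 12 libraries; other names complete the calls of a list or were chosen after their values were seen, and a few genes are not reported here. The members and lists were chosen with earlier results of these data known. Of the gene IDs, 18120 were found in GENCODE M21 (GRCm38), which gave the coordinates. Promoter windows were taken from RefSeq, build GRCm38.p6.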

Additional observations from a re-analysis of the deposited data

Results flagged for a closer look

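The effect of dTAG13 differed between 48 h and 24 h, by the contrast of both effects in limma with Benjamini-Hochberg adjustment, for 2258 genes. Among genes with a mean of at least 50 over the 12 endoderm libraries, the most positive differences were those of Hnf4a at 6.16, Efhd1 at 5.47, Serpinb6c at 5.12, Alx1 at 4.78, Ism2 at 4.71, Dnah14 at 4.21, Hecw2 at 4.15 and Magi2 at 4.15 on the log2 scale. Among the most negative differences were Best2 at -9.10 (DMSO listed at 0 in all 3 libraries at 24 h, so that its size rests on the pseudocount), Pyy at -7.37, Rbm24 at -6.31, Tlx1 at -6.02, C1ql2 at -5.76, Reg4 at -5.74 and Crtac1 at -5.74. Other sizes depended on it too. With pseudocounts of 0.5 and 5, Pyy gave -8.18 and -5.34, Tlx1 -6.67 and -4.64, Rbm24 -6.70 and -5.23, and Hnf4a 6.90 and 4.34. The calls of Dnah14 and Magi2 were lost without the line term and without any 1 line, except that Magi2 was called without line 7H2. Hecw2, at 145, 83.8 and 169 with dTAG13 and 35.2, 93.3 and 199 with DMSO at 48 h and 4.56, 10.1 and 6.79 with dTAG13 and 79, 159 and 68.1 with DMSO at 24 h, was not called without line 7H (adjusted p = 0.074). Magi2, a scaffold protein of cell junctions, stood at 81.5, 116 and 108 with dTAG13 and 73.1, 46.9 and 69.9 with DMSO at 48 h and 0, 0 and 34.2 with dTAG13 and 65.2, 11.5 and 55.9 with DMSO at 24 h.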

How the results depend on the processing

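Of the 4139 genes called, the fit without the line block called 2551 (1301 higher, 1250 lower), and 2540 of these were also called with it. The 48 h libraries alone gave 2373 (1138 higher, 1235 lower). Leaving out 1 cell line in turn gave 2190 to 2884 genes in all, 1034 to 1511 higher and 1156 to 1414 lower, 349 to 481 higher by at least 2-fold and 669 to 846 lower by at least 2-fold. Differences of effects between stages numbered 938 to 1171 when a line was left out and 895 without the block, against 2258. Called members of the lists numbered 209 without the block and 219 to 266 without a line, against 318. Pseudocounts of 0.5 and 5, the filters, rescaling to equal totals, quantile normalisation, plain variance moderation and the fit of 12 endoderm libraries kept the counts of called genes and of differences within 1.5 times, as did leaving out 272 genes with 0 beside 50 or more in a group, chosen after the data were seen. No named gene that was called changed direction under any of these settings. Of 172 named genes called at 48 h, 22 were not called without the block, among them Cldn4, Pou5f1, Jun, Foxa1, Lefty1 and Otx2, 11 without line 7H, 15 without line 7H1, 14 without line 7H2 and 18 with the 48 h libraries alone. Without a line or under another scaling the median changed sign, near 0 in each case, for the lists of WNT ligands, hedgehog, junction, basement membrane, immediate early, p53 and cell cycle genes, and quantile normalisation gave a mesoderm median of 0.05, against -0.17. The WNT target median also changed sign, to -0.15 without line 7H1, against 0.37. That of BMP genes was -0.001 without line 7H and -0.014 without line 7H1, against -0.25. Without line 7H1 the chemokine median was -0.14, against -0.57, and that of surface ectoderm genes -0.37, against -1.03. With 3 lines a treatment, 1 library of each, counts of calls rest on few degrees of freedom, and low genes on the pseudocount.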

Other observations

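A list of 40 ribosome biogenesis genes, nucleolar factors that process ribosomal RNA, was written after the values were seen. At 48 h 27 of its 40 members (67.5%) rose and 0 fell by limma, beside 14.1% and 13.4% over all genes, and at 24 h 0 rose and 16 fell. As the list was picked with these values known, its distance from the shares over all genes is a description and no independent support. An unadjusted p under 0.05 was reached by 35 higher and 0 lower members at 48 h, and by 0 higher and 27 lower members at 24 h. The median log2 fold change was 0.38 at 48 h and -0.26 at 24 h, and the difference of effects was called for 32 members. Rises at 48 h numbered 17, 13 and 30 without lines 7H, 7H1 and 7H2, and 21 without the line term. The genes of ribosomal proteins themselves, 81 tested, had 0 rises (0 at an unadjusted p under 0.05) and 12 falls at 48 h (14.8%), with a median of -0.15.

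Of the families read by symbol, SRY-box genes changed most often, with 5 of 17 risen and 6 fallen (29.4% and 35.3%), beside 14.1% and 13.4% over all genes tested. Forkhead genes gave 5 rises and 8 falls of 37 (13.5% and 21.6%), and solute carrier genes 40 rises and 45 falls of 280 (14.3% and 16.1%). The solute carrier shares and the forkhead rises lay near those over all genes. Families under those shares were the Zfp zinc finger genes with 17 rises and 27 falls of 365 (4.66% and 7.4%) and the protocadherin genes with 3 rises and 2 falls of 44 (6.82% and 4.55%). Keratin genes gave 1 rise and 2 falls of 18 (5.56% and 11.1%). Of the homeobox cluster genes 1 of 20 rose and 1 fell (5% each). The 13 mitochondrially encoded genes gave 0 calls at 48 h by limma, with 1 lower at an unadjusted p under 0.05 and a median of -0.12.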
